A study of Sus scrofa with 32 samples.

Results

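Chicory was compared with control diet in the testis of Low AS pigs, the animals that the submitters placed in the low class of androstenone and skatole (AS). All pigs with a Low_AS label entered, 14 of the 32 males in the series, with 7 on each diet. They were Danish crossbred males, Duroc X Landrace/Yorkshire, killed at a body weight near 100 kg. One group received feed with 15% chicory for 3 days before slaughter and the other a control feed without it. Each pig gave 1 testis library, and the labels used here give no age. High AS pigs, 7 on chicory and 10 on control diet, were used to ask whether the diet effect differed between the AS classes and to describe the levels of 3 genes without a symbol, and 1 pig without an AS label was not used.

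Androstenone is a steroid made by Leydig cells of the boar testis from pregnenolone, and skatole is formed by gut bacteria from tryptophan. Both collect in fat and give the meat of entire males an unpleasant odour. Chicory root is rich in inulin, a fermentable fibre that reaches the large intestine and is turned there into short-chain fatty acids, and in bitter sesquiterpene lactones. In pigs it is known as a feed that lowers skatole. In the liver, androstenone and skatole are cleared by cytochrome P450 enzymes and by conjugation.

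Only the control group held very deep libraries. The 2 control libraries whose names carry a number (replicates 3 and 7, called the numbered libraries) had 13052136 and 17581427 counts in genes. The other 5 control libraries had 2867910 to 3519234, and the 7 chicory libraries 1855174 to 5993637. Sequencing depth and diet are therefore partly tied together, and every count that leads a paragraph was repeated without the numbered libraries. A second library stood apart for its content. PRM1, which encodes the protamine that packs sperm DNA, lay at 748 CPM (counts scaled to library size) in chicory replicate 1 against 9045 to 14330 CPM in the other 6 chicory pigs and 4412 to 14310 CPM in the controls. This library was also the shallowest, at 1855174 counts, and had the highest share of reads in no gene, 39.6%. It took one end of the first principal component, at -122 against -36.1 to 42.4 for the other 13 libraries, a component that held 41.5% of the variance. The lowest control for PRM1, replicate 5 with 4412 CPM, came from the same sow, 930. Comparisons were therefore also repeated without chicory replicate 1, and without all 3 libraries.

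The 2 diet groups were not shown to differ in any of the 6 animal and library measures. Androstenone was 0.49 mg/kg ± 0.39 on chicory and 0.59 mg/kg ± 0.445 on control diet (SD, 7 pigs each). Carcass weight was 86.4 kg ± 5.62 and 87.7 kg ± 4.88. Counts in genes had a lowest, median and highest value of 1855174, 4005049 and 5993637 on chicory and 2867910, 3128816 and 17581427 on control diet. The chicory minus control difference in their mean was -2680000. It exceeded the SD on chicory, 1330000, but not that on control diet, 6110000, a group that holds the numbered libraries. After adjustment over the 6 measures each two-sided exact permutation p was 0.723. The 14 pigs came from 9 sows, and 4 sows had a Low AS pig on each diet, so not all pigs were unrelated. Sow 1014 had both of its Low AS pigs on chicory. The main test treated the 14 pigs as independent. In a limma voom fit with sow as a random effect the residual correlation within sow was 0.267.

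No gene passed the test for a difference between diets in Low AS testis. Of 11601 genes tested with edgeR's quasi-likelihood test, 0 passed an adjusted p of 0.05 (0% called), and the smallest adjusted p was 0.992. DESeq2 called 2 genes of very low count and limma voom called 0. Without adjustment 340 genes had p under 0.05 (2.93%), 231 of them higher on chicory (1.99%) and 109 lower (0.94%). The estimates themselves were balanced, with 5928 of 11601 (51.1%) above 0. Of these 11601 genes none had all 7 chicory pigs on one side of all 7 control pigs (0%). Genes of too low a count for the filter are not in that number, and 1 of the 2 genes called by DESeq2 was at 0 in all controls and above 0 in all chicory pigs.

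The precision of the comparison sets what a missing call can mean. For 9033 genes (77.9%) the whole 95% interval of the fold lay within 2-fold in either direction, with pigs of the same sow treated as independent. The median size of the log2 fold was 0.17, with a median standard error (SE) of 0.27, and 67 genes had an estimate beyond 2-fold. For the other genes the interval reached 2-fold or beyond, so a change of that size remained within the error. The plot of fold against level shows that the spread of estimates was widest among genes of low level.

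**Figure D1:**
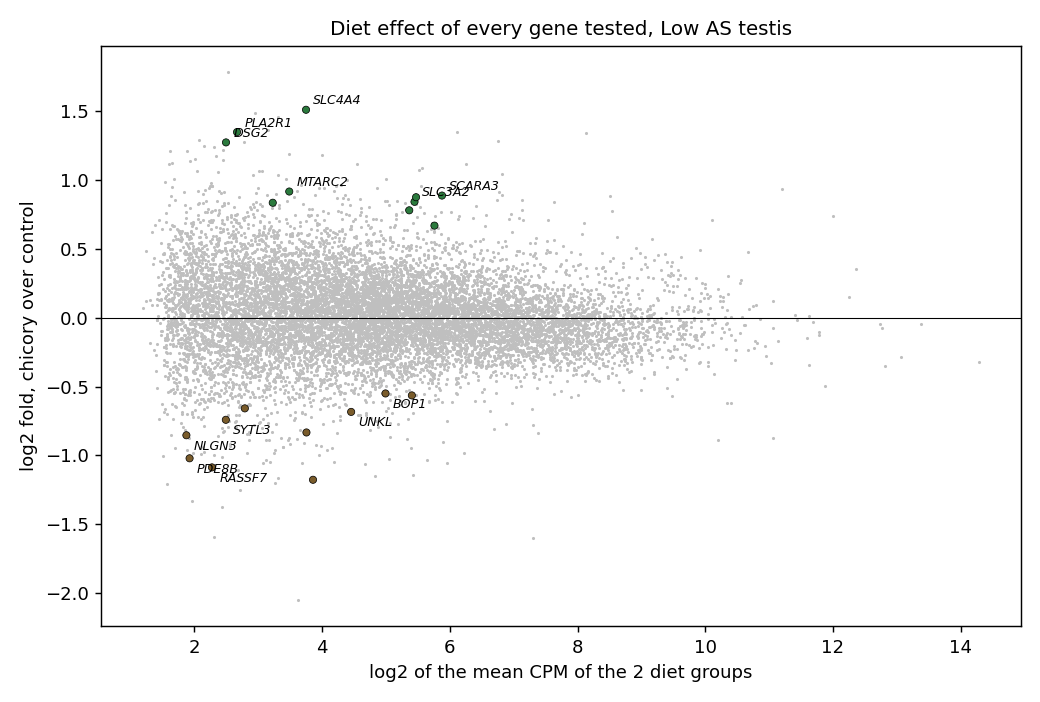
Every gene tested in Low AS testis, with the log2 of the mean CPM of both diet groups on the horizontal axis and the log2 fold, chicory over control, on the vertical axis. Coloured points are the 10 genes above 0 and the 10 below 0 with the smallest p, the first 6 of each named; the smallest adjusted p was 0.992.

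The gene with the smallest p was SLC4A4, which encodes a sodium bicarbonate cotransporter. It lay at 7.02, 19.7 and 34.6 CPM (lowest, median, highest) on chicory and at 4.09, 6.68 and 12.4 CPM on control diet. Of the 7 chicory pigs 5 were above every control, while replicates 2 and 7 lay within the control range. The log2 fold was 1.51 (SE 0.35, 95% interval 0.78 to 2.24), with an unadjusted p of 0.000387 and an adjusted p of 0.992 in edgeR. The estimate was 1.43 without the numbered libraries, and without chicory replicate 1 it was 1.35.

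PLA2R1, a receptor for secreted phospholipase A2, had 3.51, 8.53 and 18.6 CPM on chicory and 1.07, 3.43 and 6.34 CPM on control diet. All chicory pigs but replicate 7 exceeded the highest control, and the chicory pig was the higher in all 4 sows with a pig on each diet. Its log2 fold was 1.35 (SE 0.39). SLC3A2, the heavy chain shared by several amino acid transporters, was at 38.7, 55.9 and 83.5 CPM against 14.7, 34.7 and 39.5 CPM. Its 2 lowest controls were the numbered libraries, with 14.67 and 19.98 CPM, and the log2 fold of 0.84 (SE 0.24) was 0.58 (SE 0.21) without them. DSG2, a desmosomal cadherin that joins epithelial cells, was at 2.66, 7.97 and 12.7 CPM against 2.06, 3.20 and 7.10 CPM, with a log2 fold of 1.27 (SE 0.37). For DSG2 the lowest chicory pig was replicate 1, and the estimate without that pig was 1.41.

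MTARC2, a molybdenum enzyme of the mitochondrial outer membrane, had 7.20, 14.4 and 20.1 CPM on chicory and 5.35, 6.84 and 13.4 CPM on control diet (log2 fold 0.92, SE 0.27). SCARA3, a scavenger receptor that responds to oxidative stress, had 42.6, 68.3 and 124.5 CPM against 19.0, 40.5 and 64.6 CPM (log2 fold 0.89, SE 0.27). Both were higher in the chicory pig of all 4 sows, and in both 4 chicory pigs exceeded every control. The other 4 of the 10 genes with the smallest p among those above 0 were SCG3 (secretogranin, a granule protein), LAS1L (ribosome biogenesis), SLC22A17 (a lipocalin receptor) and ADORA1 (an adenosine receptor), with log2 folds of 0.67 to 0.88. LAS1L and SLC22A17 were highest in chicory replicate 1, at 98.98 and 119.2 CPM, and without that pig their folds were 0.56 and 0.60.

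**Figure D2:**
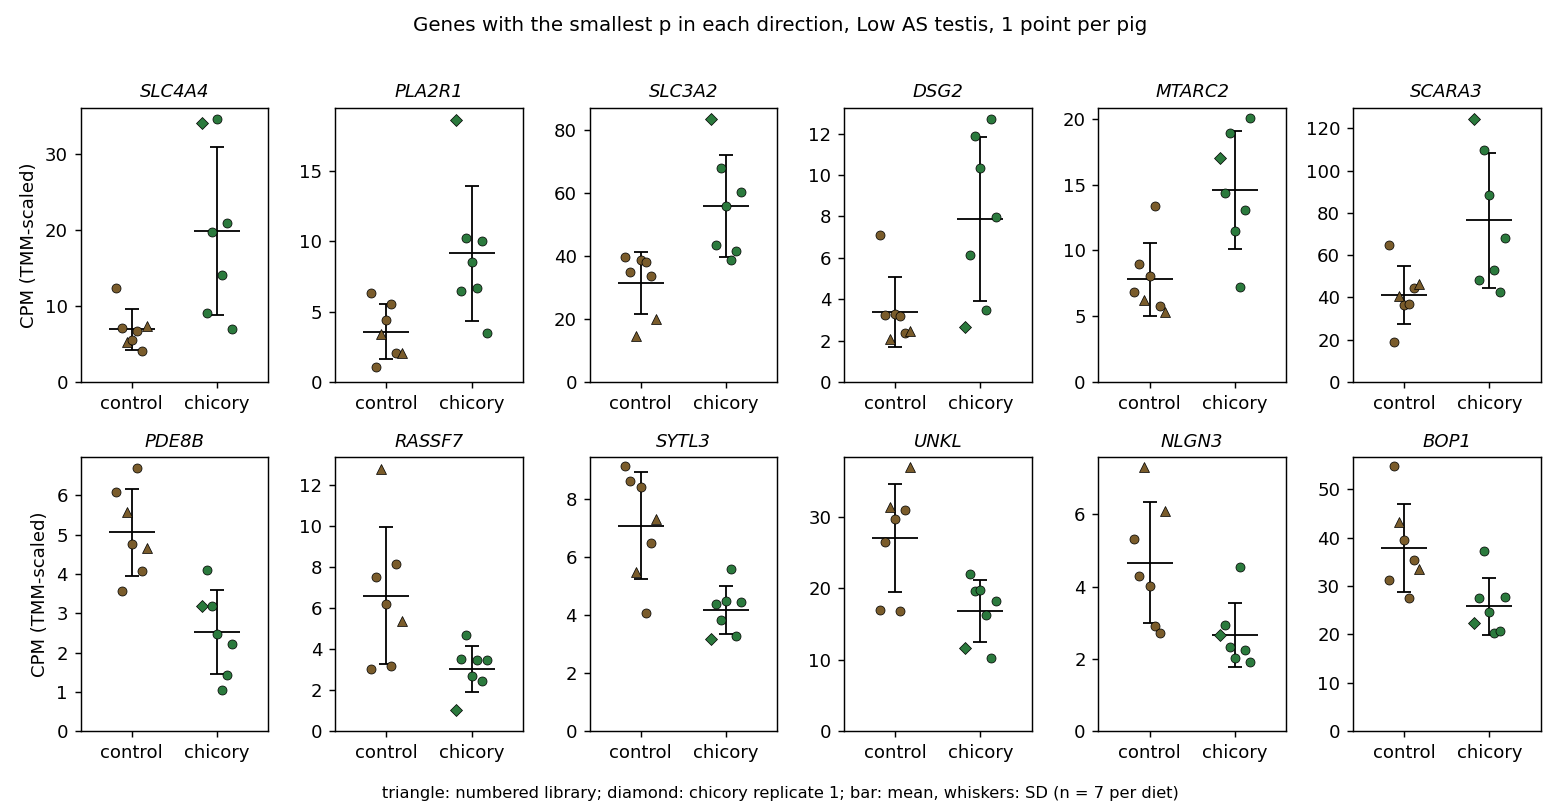
CPM of each pig for 6 genes higher and 6 genes lower on chicory in Low AS testis, with control and chicory pigs side by side. Bars are the mean and SD of 7 pigs, triangles the numbered libraries and the diamond chicory replicate 1; in every panel the 2 groups overlap.

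Among genes with an estimate below 0 the smallest p belonged to PDE8B, a phosphodiesterase that breaks down cyclic AMP. It lay at 1.07, 2.47 and 4.10 CPM on chicory and 3.58, 4.75 and 6.68 CPM on control diet. All chicory pigs but replicate 2 were below the lowest control, and the chicory pig was the lower in all 4 sows. The log2 fold was -1.02 (SE 0.30, 95% interval -1.65 to -0.40), with an unadjusted p of 0.00287 and an adjusted p of 0.992 in edgeR. The value was -1.03 without the numbered libraries and -1.07 without chicory replicate 1. In the pigs of those 4 sows, with sow as a block, it was -0.61 (SE 0.405).

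RASSF7, a member of the Ras association domain family, had 1.06, 3.47 and 4.69 CPM on chicory and 3.04, 6.22 and 12.8 CPM on control diet (log2 fold -1.09, SE 0.35). SYTL3, a synaptotagmin-like protein of vesicle traffic, had 3.19, 4.40 and 5.60 CPM against 4.07, 7.32 and 9.13 CPM (log2 fold -0.74, SE 0.25). In both, 3 chicory pigs lay below every control and 5 control pigs above every chicory pig. UNKL, a zinc finger protein, had 10.2, 18.2 and 22.0 CPM against 16.9, 29.6 and 37.0 CPM (log2 fold -0.68, SE 0.23). BOP1, a ribosome biogenesis factor, was at 20.3, 24.7 and 37.1 CPM against 27.6, 35.4 and 54.8 CPM (log2 fold -0.55, SE 0.20). These 2 ribosome biogenesis factors, LAS1L and BOP1, thus had estimates of opposite sign.

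The other 5 were NLGN3 (a neuroligin), CREBZF (a leucine zipper protein), IRAK2 (a kinase of interleukin-1 receptor signalling), FAM83E and MDM1 (a microtubule-binding protein), with log2 folds of -1.18 to -0.56. In IRAK2 and FAM83E a single numbered library was far above the rest. Control replicate 3 lay at 36.4 CPM for IRAK2 and 61.2 CPM for FAM83E, where the control medians were 16.2 and 15.7 CPM. Leaving out the numbered libraries, the folds of these 2 genes went from -0.83 to -0.42 and from -1.18 to -0.49. In NLGN3, MDM1 and CREBZF both numbered libraries lay above all other controls. Without them the folds went from -0.85 to -0.56, from -0.56 to -0.36 and from -0.66 to -0.53. All 20 genes named so far kept the sign of their estimate in each alternative fit that tested them.

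Androgen and 16-androstene synthesis showed no call, with 0 of the 11 genes tested and 4 of them above 0, against 51.1% of all genes. The median log2 fold was -0.03. Without the numbered libraries 3 of 12 were above 0 (median -0.22), against 49.8% of all genes. Without all 3 libraries it was 3 of 12 (median -0.38), against 46.5%. CYP17A1, the enzyme that makes both androgens and, with cytochrome b5, the 16-androstenes, was at 283, 863 and 1402 CPM on chicory and 89.8, 770 and 2834 CPM on control diet. Controls spanned a far wider range than chicory pigs, from numbered replicate 7 at the bottom to replicate 5, the sow 930 pig, at the top. The log2 fold was -0.14 (SE 0.52, 95% interval -1.24 to 0.96), an interval that reaches past a fall of 2-fold.

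CYP11A1, which cuts the side chain of cholesterol, was at 56.8, 158 and 237 CPM against 41.2, 127 and 522 CPM, a log2 fold of -0.13 (SE 0.46). INSL3, a peptide hormone of Leydig cells, was at 333, 791 and 1372 CPM against 69.5, 817 and 2646 CPM, a log2 fold of -0.12 (SE 0.51). These 3 Leydig genes shared their extremes: chicory replicates 6 and 2 were lowest and highest on chicory, and control replicates 7 and 5 on control diet. Their estimates took the other sign, at 0.36 to 0.46, when control replicate 5 was left out, and lay at -0.57 to -0.49 without the numbered libraries. SRD5A1, a steroid 5-alpha reductase, was at 21.9, 40.5 and 66.5 CPM against 23.3, 53.0 and 89.8 CPM (log2 fold -0.33, SE 0.30).

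HSD17B3, which makes testosterone from androstenedione, had the smallest p of the list. It lay at 87.7, 132 and 259 CPM on chicory and 38.9, 80.8 and 151 CPM on control diet, with the highest pigs being the sow 930 pigs on both diets. Its log2 fold was 0.76 (SE 0.28, unadjusted p 0.014, adjusted p 0.992 in edgeR) and 0.51 (SE 0.27) without the numbered libraries. The chicory pig was higher in all 4 sows. HSD17B12, which acts mainly on long-chain fatty acids, had a log2 fold of 0.51 (SE 0.30), and 0.02 (SE 0.24) without all 3 libraries. The lists of Leydig markers (4 of 10 above 0, median -0.08) and Leydig regulation (7 of 14, median -0.01) had 0 calls. In the plain libraries they had 3 of 11 above 0 (median -0.36) and 9 of 15 (median 0.29). IGF1, a growth factor in both lists, was at 0.53, 2.69 and 5.32 CPM against 2.54, 5.01 and 12.9 CPM (log2 fold -0.98, SE 0.42), a fold of -0.44 (SE 0.42) without the numbered libraries. The gene of the luteinizing hormone receptor, LHCGR, was not tested.

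Genes of drug and steroid clearance gave no call either. In the list of foreign-compound sensing and phase I enzymes 5 of 11 tested genes were above 0, with a median log2 fold of -0.02, and in conjugation and export 5 of 11, with a median of -0.01. Over all genes tested the median was 0.01. Without the numbered libraries these lists had 5 of 11 above 0 (median -0.09) and 6 of 11 (median 0.007). CYP2E1, the cytochrome P450 that oxidizes skatole in liver, was barely present in testis, at 2.13, 4.10 and 7.53 CPM on chicory and 2.62, 3.55 and 12.7 CPM on control diet. Its log2 fold was -0.20 (SE 0.37), and 0.19 (SE 0.35) without the numbered libraries, one of which held the highest value. ABCC1, an exporter of conjugates, was at 12, 23.6 and 49.8 CPM against 6.09, 11.6 and 39.8 CPM (log2 fold 0.86, SE 0.39). FMO5 and FMO1, flavin monooxygenases, had log2 folds of 0.50 (SE 0.34) and 0.63 (SE 0.55). SUMF1, which activates sulfatases, had 0.49 (SE 0.31).

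The glutathione and NRF2 list had 16 of 24 genes above 0, with a median of 0.05. The count was 7 of 24 without the numbered libraries, against 49.8% of all genes in that fit. GSTA4, a glutathione transferase for lipid aldehydes, was at 112, 160 and 433 CPM on chicory and 87.9, 120 and 193 CPM on control diet. The value of 433 CPM was chicory replicate 1, and the log2 fold of 0.47 (SE 0.28) was 0.12 (SE 0.19) without it. MGST3, a membrane-bound transferase, had a log2 fold of 0.34 (SE 0.21).

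Lipid and glucose synthesis had 14 of 17 genes above 0, with a median of 0.16, and 0 calls. Without the numbered libraries 10 of 17 were above 0, without chicory replicate 1 15 of 17, and without all 3 11 of 17. SCD, the desaturase that makes monounsaturated fatty acids, was at 66.2, 102 and 185 CPM on chicory and 50.8, 66.9 and 111 CPM on control diet. The chicory pig was higher in all 4 sows, while 4 chicory pigs remained at or below the highest control. Its log2 fold was 0.75 (SE 0.25, unadjusted p 0.00762, adjusted p 0.992 in edgeR). ACACA, the carboxylase that starts fatty acid synthesis, had 0.37 (SE 0.21).

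Cholesterol synthesis and uptake had 19 of 29 genes above 0 (median 0.10), which became 10 of 29 (median -0.05) without the numbered libraries. ABCA1, which exports cholesterol from cells, was at 1.87, 4.04 and 5.86 CPM against 1.03, 1.70 and 6.59 CPM. Its top value was a control, replicate 1, and the log2 fold was 0.89 (SE 0.41). NPC2, which carries cholesterol out of lysosomes, had 0.51 (SE 0.29). Fatty acid oxidation genes were above 0 in 9 of 15 cases, with PPARG, a nuclear receptor for fatty acids, at -0.65 (SE 0.37) and PDK2, a kinase that restrains pyruvate use, at 0.54 (SE 0.34). PPARG lay at -0.06 (SE 0.34) without the numbered libraries.

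Of 15 listed receptors and carriers of short-chain fatty acids, 8 had an identifier under their symbol and 6 of those passed the filter. Of these 3 were above 0, with a median of -0.02, and 3 of 6 without the numbered libraries, with a median of 0.05. FFAR4, a receptor for long-chain rather than short-chain fatty acids, was at 3.73, 10.5 and 17.2 CPM on chicory and 11.2, 14.3 and 19.2 CPM on control diet. The chicory pig was lower in all 4 sows, and 5 chicory pigs were below every control, with a log2 fold of -0.40 (SE 0.26). HDAC3, a histone deacetylase, had 0.27 (SE 0.18).

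Insulin and nutrient signalling had 4 of 15 genes above 0 (median -0.08) and the circadian clock 3 of 9 (median -0.03), both without a call. Leaving out the numbered libraries gave 7 of 14 (median -0.01) and 6 of 9 (median 0.05). SESN2, which restrains growth signalling when amino acids are scarce, was at 13.8, 19.8 and 32.8 CPM against 11.04, 27.4 and 64.3 CPM. Its highest value was numbered replicate 3, and the log2 fold of -0.61 (SE 0.30) was -0.25 (SE 0.27) without the numbered libraries. KLF9, a glucocorticoid-induced factor, had -0.77 (SE 0.42), and 0.04 (SE 0.32) without them. NFIL3, a repressor of the clock, was at 78.8, 138 and 194 CPM against 143, 163 and 195 CPM (log2 fold -0.27, SE 0.18), and RORA, a clock receptor, had 0.25 (SE 0.26). In iron and heme genes 9 of 13 were above 0 (median 0.17), and 5 of 13 both without the numbered libraries (median -0.02) and without all 3 (median -0.15). FTMT, mitochondrial ferritin, had -0.51 (SE 0.26).

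Testis cell types were read from marker genes. In bulk tissue, fewer cells of a type and less RNA per cell cannot be told apart. The 26 genes of elongating spermatids had a mean log2 CPM of 7.06 in chicory replicate 1 and 8.40 to 9.70 in the other 13 pigs. Round spermatid genes were at 6.15 in that pig and 7.28 to 8.47 in the others.

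**Figure D3:**
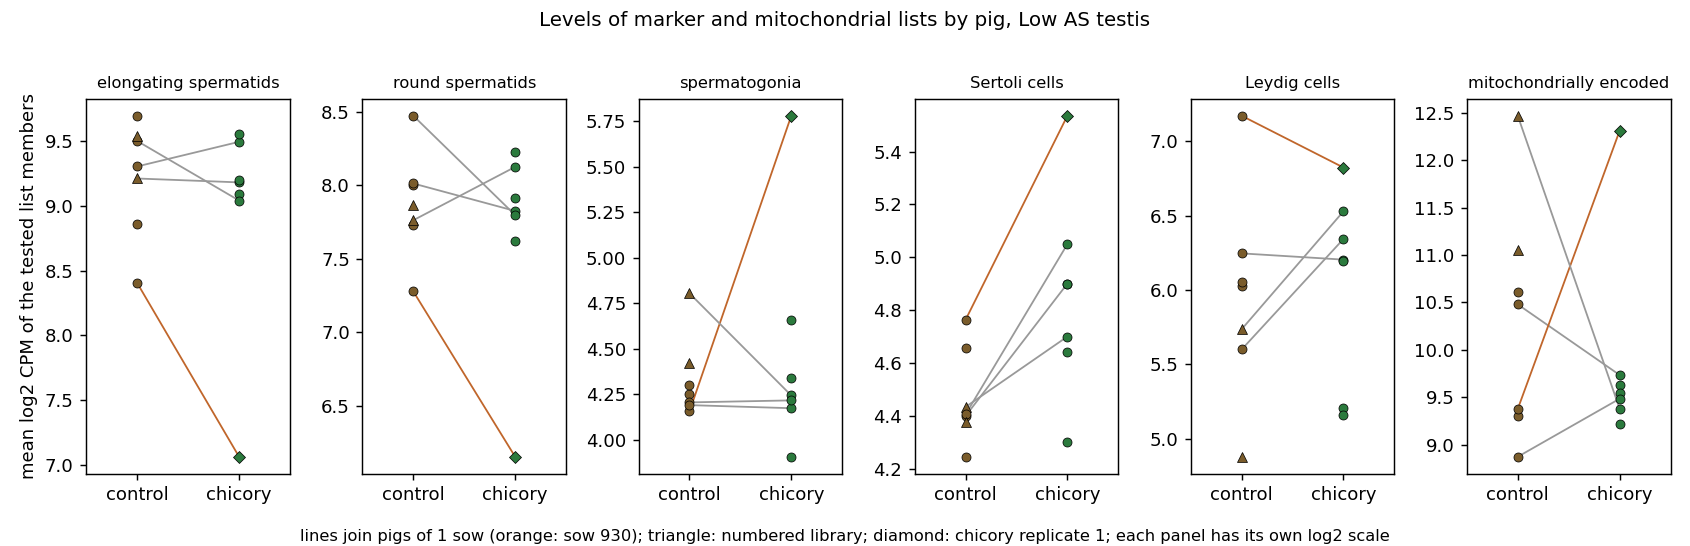
Mean log2 CPM of 6 gene lists in each Low AS pig, by diet, with lines joining pigs of the same sow and sow 930 in orange. Chicory replicate 1 lies at 7.06 for elongating spermatids, where the other 13 pigs lie at 8.40 to 9.70, and at 5.53 for Sertoli cells, above all others.

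Estimates of spermatid markers were mostly below 0 with all pigs and without the numbered libraries, and not when chicory replicate 1 alone was left out. With all pigs, 3 of 26 elongating spermatid genes and 4 of 19 round spermatid genes were above 0, with medians of -0.16 and -0.10 and 0 calls. Without chicory replicate 1 the counts were 13 of 26 and 11 of 19, against 48.5% of all genes in that fit. Without the numbered libraries they were 7 of 26 and 1 of 19 (medians -0.13 and -0.17), against 49.8%. Leaving out all 3 libraries gave 14 of 26 and 7 of 19, against 46.5%. PRM2, the second protamine, was at 156, 919 and 1208 CPM on chicory and 530, 1469 and 3064 CPM on control diet. Its log2 fold was -0.89 (SE 0.40), and -0.47 (SE 0.40) without the numbered libraries, of which replicate 3 had the highest value. PRM1 itself had a log2 fold of -0.04 (SE 0.44), and 0.17 (SE 0.25) without chicory replicate 1. SPAG4, a protein of the sperm flagellum, had -0.34 (SE 0.29). SPACA4 and CATSPER3, a sperm surface protein and a subunit of the sperm calcium channel, had -0.42 (SE 0.29) and -0.33 (SE 0.25). Spermatocyte genes, 6 of 22 above 0, had a median of -0.09. Among them SPO11, which cuts DNA to start recombination, was at 0.41 (SE 0.26) and SYCE1, of the synaptonemal complex, at -0.33 (SE 0.22).

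Estimates of Sertoli cell markers were mostly above 0. Of 11 tested 7 were above 0, against 51.1% of all genes, with a median of 0.40. At an unadjusted p under 0.05 in edgeR 5 were higher, against 1.99% of all genes, though 0 were called. The 5 were NR0B1, FSHR, DEFB119, CLDN11 and DHH, with log2 folds of 0.55 to 1.06. In contrast WT1 and SOX9, transcription factors of Sertoli identity, had log2 folds of -0.11 and 0.30. Over the list the mean log2 CPM was 4.30, 4.90 and 5.53 on chicory and 4.25, 4.41 and 4.76 on control diet. The pig at 5.53 was chicory replicate 1, the library lowest in spermatid markers. Without it the list had 6 of 11 above 0, a median of 0.04 and 1 gene higher at that unadjusted p. Over all genes of that fit 48.5% were above 0 and 135 of 11727 were higher at that p. It had 11 of 12 above 0, a median of 0.44 and 2 such genes without the numbered libraries. There the shares of all genes were 49.8% and 95 of 11754. Without all 3 libraries the list had 9 of 12 above 0 (median 0.235) and 1 such gene, against 46.5% and 63 of 11717.

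FSHR, the receptor for follicle-stimulating hormone, was at 4.27, 14.3 and 24.5 CPM on chicory and 2.23, 4.39 and 18.5 CPM on control diet (log2 fold 1.01, SE 0.43). Without chicory replicate 1, where it was highest, the estimate was 0.85 (SE 0.43). NR0B1, a nuclear receptor that restrains steroidogenic genes, was at 6.67, 11.2 and 17.6 CPM against 5.58, 6.81 and 11.2 CPM (log2 fold 0.63, SE 0.27). It was higher in the chicory pig of all 4 sows, as was FSHR. Fibroblast and matrix genes were above 0 in 10 of 11 cases (median 0.28), and in 7 of 11 (median 0.09) without chicory replicate 1. COL6A2, a matrix collagen, had 0.64 (SE 0.29) and FBLN1, a fibulin, 0.57 (SE 0.41).

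Peritubular and smooth muscle genes had 2 of 11 above 0 with all pigs, and 9 of 11 without the numbered libraries, where they were highest. Among chicory pigs they were highest in replicate 1, and without all 3 libraries 6 of 11 were above 0 (median 0.07). DES, muscle desmin, was at -0.69 (SE 0.34) and MYLK, myosin light chain kinase, at 0.49 (SE 0.31). Without the numbered libraries they were at -0.31 (SE 0.35) and 0.30 (SE 0.35). Endothelial genes had 3 of 9 above 0, with EGFL7 at -0.54 (SE 0.38) and PROX1, of lymph vessels, at -0.36 (SE 0.33). Macrophage and immune genes had 4 of 6, with MRC1, a macrophage receptor, at 0.58 (SE 0.27) and CD2, a T cell antigen, at -0.46 (SE 0.30). Spermatogonial genes had 5 of 6, their mean log2 CPM being 5.78 in chicory replicate 1 and 3.91 to 4.80 in the others. UCHL1 and KIT, markers of spermatogonia, had 0.74 (SE 0.42) and 0.61 (SE 0.41), and 0.11 and -0.03 without that pig.

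A piece of testis can also hold blood and epididymis, and 2 markers of each were tested, of 9 and 15 listed. The blood pair summed to 12.1 to 93.1 CPM on chicory and 17.5 to 192 CPM on control diet, and the epididymis pair to 22.0 to 55.9 CPM and 16.1 to 47.8 CPM. HBB, a globin, was at 9.02, 27.1 and 92.1 CPM on chicory and 8.24, 72.4 and 179 CPM on control diet. Its log2 fold was -1.06 (SE 0.53), and -0.562 (SE 0.555) without the numbered libraries, which were the highest controls. EPB42, a red cell membrane protein, had -0.47 (SE 0.45). The blood pair did not move together: chicory replicate 1 had the highest HBB on chicory, 92.1 CPM, and 0 CPM of EPB42. The epithelial genes KRT8 and ADAM28 had 0.47 (SE 0.35) and 0.34 (SE 0.34). The part of these cells in the other values was not tested.

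Mitochondrially encoded genes, which make subunits of the respiratory chain, depended most on which libraries entered. With all 14 pigs 1 of 13 was above 0, with a median log2 fold of -0.35. Without the numbered libraries 13 of 13 were above 0 (median 0.47), and without chicory replicate 1 0 of 13 (median -1.31). Without all 3 it was 1 of 13 (median -0.43), against 46.5% of all genes. Their mean log2 CPM was 12.31 in chicory replicate 1 and 9.22 to 9.73 in the other 6 chicory pigs. Controls ran from 8.87 to 12.47, with numbered replicates 3 and 7 at 12.47 and 11.05 and plain replicates 4 and 6 at 10.61 and 10.48. ND4L, a subunit of complex I, had -1.60 (SE 0.67), and 0.08 (SE 0.47) without the numbered libraries. ND6, encoded on the opposite strand to the other subunits, had 0.91 (SE 0.59), and -0.28 (SE 0.36) without chicory replicate 1.

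Immediate early genes, which respond within minutes to stimuli or handling, were above 0 in 0 of 8 cases, with a median of -0.44. FOS was at 4.53, 5.12 and 16.6 CPM on chicory and 6.80, 10.2 and 39.8 CPM on control diet, where the highest pig was numbered replicate 7 (log2 fold -0.87, SE 0.41). Without the numbered libraries 3 of 8 were above 0 (median -0.09) and FOS was at -0.22 (SE 0.36). Leaving out chicory replicate 1 gave 0 of 8 (median -0.69), and leaving out all 3 libraries 1 of 8 (median -0.22), against 46.5% of all genes. SGK1, a stress kinase, had -0.61 (SE 0.30), and -0.04 (SE 0.21) without them. Interferon response genes were above 0 in 10 of 13 cases (median 0.20), and in 7 of 13 (median 0.02) without chicory replicate 1. USP18, an interferon-induced protease, and HERC5, an interferon-induced ligase, had 0.58 (SE 0.28) and 0.48 (SE 0.28), and 0.40 and 0.10 without that pig. Of 23 heat shock genes 10 were above 0. HSP90AB1, a chaperone, had 0.51 (SE 0.24) and DNAJB4, a co-chaperone, -0.33 (SE 0.24).

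**Figure D4:**
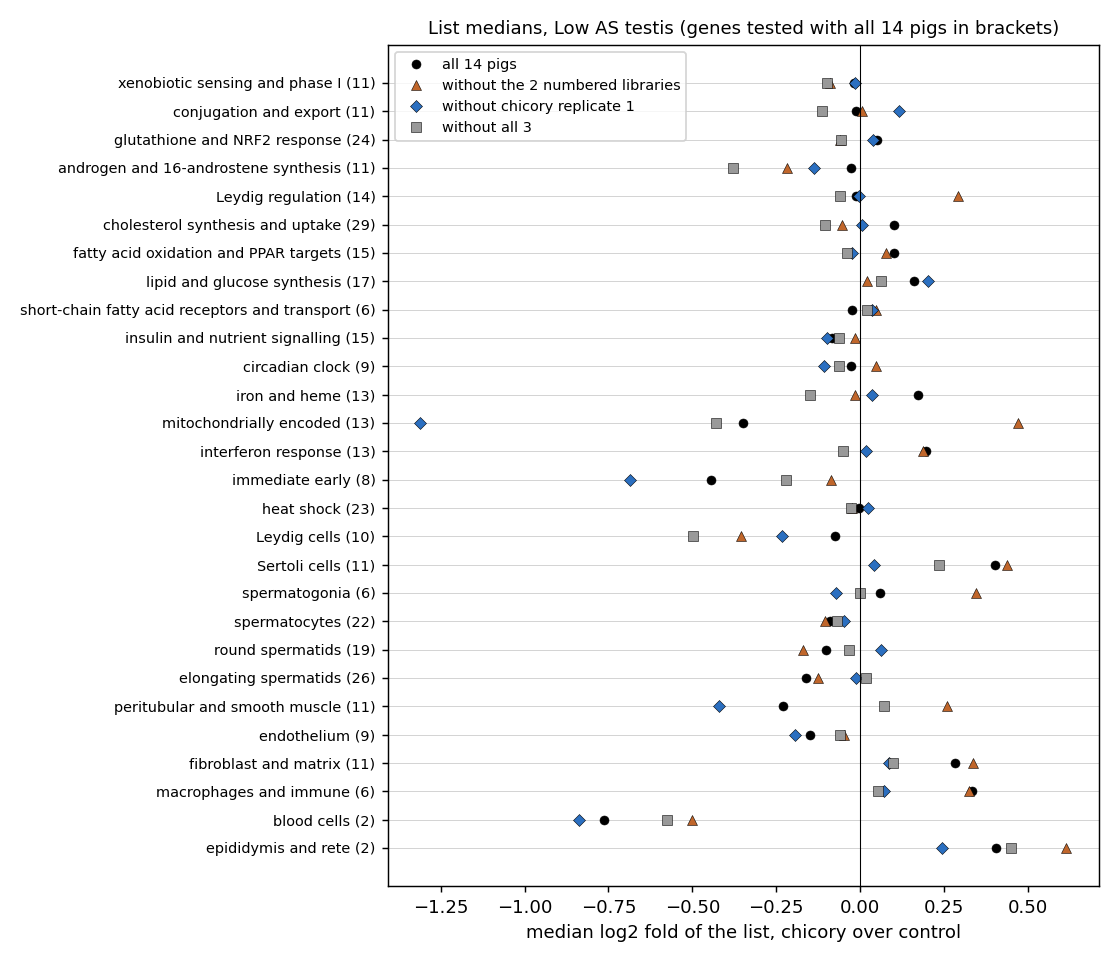
Median log2 fold, chicory over control, of each gene list with all 14 Low AS pigs, without the 2 numbered libraries, without chicory replicate 1 and without all 3. The mitochondrially encoded list runs from -1.31 to 0.47, and most other medians lie within 0.5 of 0.

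Leaving out the doubted libraries did not yield a set of called genes. In the 12 plain libraries edgeR called 0 of 11754 genes, with a smallest adjusted p of 0.65. There 137 genes had an unadjusted p under 0.05 (1.17%), of which 73 were among the 340 of all 14 pigs, 21.5% of those 340. Without chicory replicate 1 there were 0 calls and 316 genes at that unadjusted p, 170 of them shared. Without all 3 libraries there was 1 call among 11717 genes.

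That gene, ENSSSCG00000025331, has no symbol in the table used, and its level was split between pigs. On chicory 5 pigs lay between 112 and 339 CPM, and replicates 1 and 4 at 0.53 and 0.22 CPM. On control diet the 2 numbered libraries lay at 314 and 116 CPM and the 5 plain ones at 0.25 to 1.70 CPM. The log2 fold was 1.28 (SE 1.22) with all 14 pigs and 7.49 (SE 1.06, adjusted p 0.0272 in edgeR) without the numbered libraries and chicory replicate 1, which removes both high controls and 1 of the 2 low chicory pigs. In High AS all 17 pigs were above 1 CPM, with medians of 101 CPM on chicory and 103 CPM on control diet.

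Within sows the comparison held 8 pigs, 1 on each diet from 4 sows. With sow as a block, 0 genes were called and the smallest adjusted p was 0.762. Of the 10 genes above 0 with the smallest p, 7 were higher in the chicory pig of all 4 sows and 3 in 3 of 4. Of the 10 below 0, 8 were lower in all 4. These sow pairs are among the pigs that ranked the genes, and all of sow 930's values enter them. The chicory pig of sow 930 was replicate 1, and the control pig of sow 1139 was numbered replicate 3. Counts over the 4 sows are therefore not free of the doubted libraries.

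The diet effect was not shown to differ between the AS classes. In 1 model of 31 pigs with library set as a term, 0 of 12733 genes passed the interaction test of edgeR (0% called, smallest adjusted p 0.928), and 457 had an unadjusted p under 0.05 (3.59%). DESeq2 called 1, RNF222, which lay under 1 CPM in all 31 pigs, and limma voom called 0. SLC4A4 had a log2 fold of 1.53 (SE 0.38) in Low AS and -0.48 (SE 0.35) in High AS, a difference of 2.01 (SE 0.53, adjusted p 0.946 in edgeR). All 10 genes with the smallest p above 0 in Low AS had an estimate below 0 in High AS, from -0.50 to -0.04. Of the 10 below 0 in Low AS, 5 were above 0 in High AS. The share of all genes below 0 in High AS is not given here, so these sign counts have no background to be set against. Because those genes were ranked by their Low AS values, their differences from High AS are a description. PRM2 had -0.49 (SE 0.39) in Low AS and 0.79 (SE 0.34) in High AS.

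**Figure D5:**
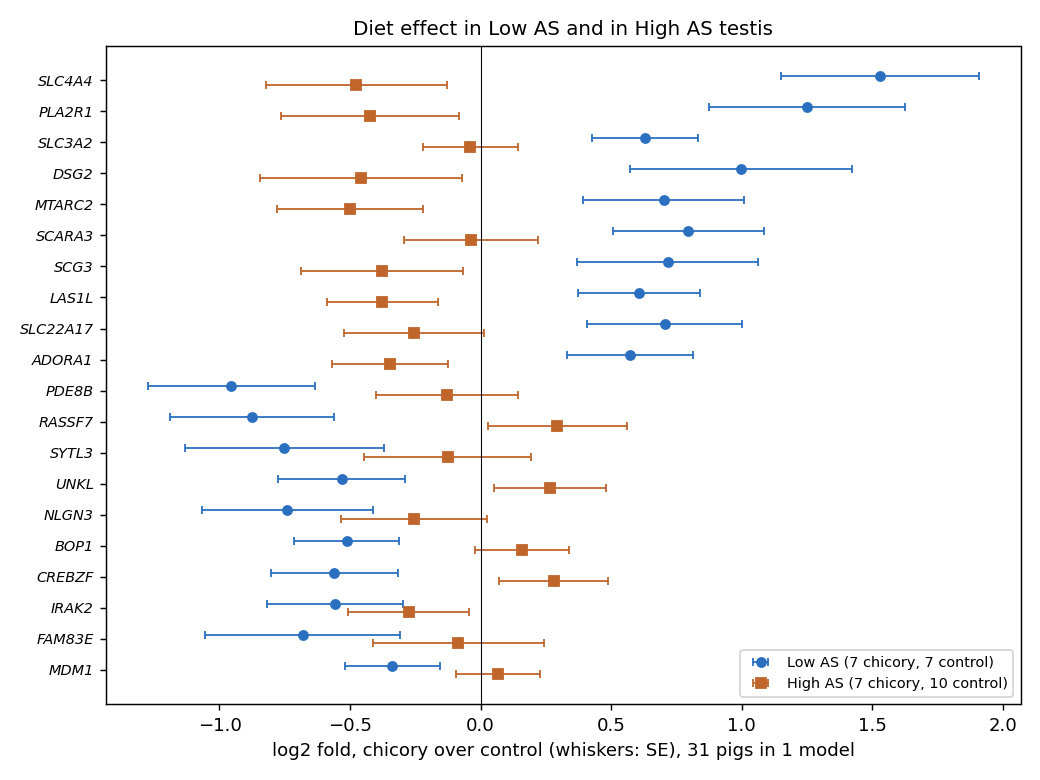
Log2 fold, chicory over control, of the 20 genes ranked in Low AS, in Low AS pigs (7 and 7) and High AS pigs (7 and 10), from 1 model of 31 pigs; whiskers are 1 SE. The 10 upper genes are all above 0 in Low AS and below 0 in High AS, and no difference passed the test. The genes were ranked by their Low AS values, and the share of all genes below 0 in High AS is not given.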

How the data were processed

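Testis messenger RNA was sequenced per pig, with the TruSeq stranded mRNA kit per the labels' protocols. The deposited files hold whole-number read counts per Ensembl gene identifier, 25322 in each, which the authors did not normalize. Tools in the submitters' processing notes are HTSeq 0.6.0, STAR, SAMtools 1.3.1, cutadapt 1.8.1 and Trimmomatic 0.33. The sources used here give neither the genome build nor the strand setting of the counting. Whether the counting separated reads of overlapping or antisense genes is therefore not known. The 5 closing rows for reads in no gene stayed out of all tests. In the 14 pigs 22.7% to 39.6% of reads fell in no annotated gene. A table of names gave symbols to 11804 identifiers.

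Genes were filtered with filterByExpr, scaled with TMM and tested with edgeR 4.0.16 (quasi-likelihood F test, R 4.3.3) with Benjamini-Hochberg adjustment at 0.05. Folds are log2, chicory over control, the SE was obtained from the fold and the F statistic, and levels are CPM with TMM scaling. No 2 libraries of a diet group agreed within sampling noise, the smallest of 42 pairwise chi-square values being 7.24 per degree of freedom. Replicate numbers follow the order of deposit and pair no pigs. Alternatives used limma 3.58.1, DESeq2 1.42.0, other scalings and filters, covariates, and each pig left out in turn. The scripts were tested on simulated data.

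The comparison, the 28 gene lists (654 symbols, 460 with an identifier) and the tests were chosen with earlier results of these data known. The genes named were the 10 above 0 and the 10 below 0 with the smallest p among those with a symbol, CYP17A1, CYP11A1, SRD5A1, INSL3, CYP2E1 and PRM1, and the members of each list with the smallest p. 1 list member that the rule would name is not reported here. Lists were described by counts and medians, with no test.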

Additional observations from a re-analysis of the deposited data

Results flagged for a closer look

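In 30 of 172 groups of values for the named genes and lists, 1 pig lay far from the other 6 of its diet group, by the ratio of its gap to the group's range. The rule is set to flag about 1 in 20 groups by chance where groups are independent. These groups come from the same libraries and from genes partly chosen by p, so the 30 cannot be set against that rate. The same libraries recur, 11 times chicory replicate 1, 7 times control replicate 1 and 6 times control replicate 3.

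Chicory replicate 1 stood low in PRM1, at 748.2 CPM, and in the mean log2 CPM of round and elongating spermatid markers, at 6.15 and 7.06. It stood high in the mitochondrially encoded list, at 12.31, and in spermatogonial markers, at 5.78. It was also high in LAS1L at 98.98 CPM, SLC22A17 at 119.2 CPM, GSTA4 at 433.2 CPM, ND4L at 220.8 CPM, HSP90AB1 at 1015 CPM and UCHL1 at 56.94 CPM. Its sow also had the control pig that was highest in CYP11A1, replicate 5 at 521.7 CPM.

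Control replicate 1 was the highest control in SLC4A4 at 12.42 CPM, DSG2 at 7.097 CPM, ADORA1 at 62.35 CPM, ABCC1 at 39.79 CPM, ABCA1 at 6.59 CPM, SCD at 111.3 CPM and COL6A2 at 23.32 CPM. All 7 of these genes had an estimate above 0 on chicory.

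Of the numbered libraries, control replicate 3 was high in IRAK2 at 36.37 CPM, FAM83E at 61.15 CPM, SESN2 at 64.33 CPM, ND4L at 951.3 CPM, EGFL7 at 25.73 CPM and the mean of spermatogonial markers at 4.80. Control replicate 7 was high in CYP2E1 at 12.67 CPM and FOS at 39.84 CPM. The remaining values were NLGN3 in chicory replicate 5 at 4.532 CPM, KRT8 in chicory replicate 2 at 38.97 CPM and SPACA4 in control replicate 2 at 417.8 CPM.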

How the results depend on the processing

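With 7 pigs a group the SE of a typical gene was 0.27 on the log2 scale, and 2 sources of doubt, depth and chicory replicate 1, lie each on 1 diet only. The count of called genes was 0 in the 14 fits that left out 1 pig and in all other fits but 2: it was 1 without the 3 doubted libraries, and so 1 in the plain libraries without chicory replicate 1, and 2 with DESeq2. For the difference between AS classes DESeq2 called 1. At an unadjusted p under 0.05 there were 190 to 783 genes leaving out 1 pig (190 and 210 without control replicates 3 and 7, 783 and 669 without control and chicory replicate 5) and 137 to 806 in the other fits. In the plain libraries the chicory minus control difference took the other sign for counts in genes (814000), genes detected (344) and reads in no gene (-1.14 percentage points). Replicate numbers follow the order of deposit and pair no pigs. The 4 sows with a pig on each diet were fitted with sow as a block, with 0 calls.

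Of 78 genes named, 64 kept the sign of their fold in all fits, and none of the other 14 was called. CYP17A1, CYP11A1 and INSL3 took the other sign with sow as a block (0.32, 0.37, 0.35), with voom (0.28, 0.12, 0.14), with voom and sow (0.34, 0.22, 0.24) and with carcass weight (0.0934, 0.136, 0.0607), and the first pair also with androstenone as a covariate (0.0183, 0.06). Leaving out 1 pig gave -0.36 to 0.41, -0.32 to 0.46 and -0.35 to 0.36. CYP2E1 was 0.18 without the numbered libraries, 0.28 without all 3, 0.27 with the sow block, 0.0643 with the first index as a block and 0.30 in the model of 31 pigs, and -0.36 to 0.24 leaving out 1 pig. PRM1 was 0.0175 without the numbered libraries, 0.17 without chicory replicate 1, 0.22 without all 3, 0.0119 with total counts, 0.11 with the spermatid level as a covariate, and -0.18 to 0.17 leaving out 1 pig. Without the numbered libraries ND4L was 0.0831 and KLF9 0.0385, and with the index block 0.17 and 0.10. Without all 3 UCHL1 was -0.12, HERC5 -0.0232 and DNAJB4 0.0572. FMO1 was -0.0658 with voom. ND6 was -0.28 without chicory replicate 1, -0.26 with DESeq2, -0.20 with the spermatid level, and -0.28 to 1.32 leaving out 1 pig. KIT and ADAM28 were -0.0336 and -0.0127 without chicory replicate 1, and -0.0336 to 0.77 and -0.0127 to 0.47 leaving out 1 pig. The causes were not tested.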

Other observations

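DESeq2, which keeps genes of lower count than the filter used for edgeR, called 2 identifiers without a symbol. An edgeR fit with no filter on low counts called 0 genes. ENSSSCG00000028731 had 0 counts in all 7 control pigs and 0.22 to 3.68 CPM on chicory. In High AS it was above 1 CPM in 5 of 7 chicory pigs and 0 of 10 control pigs. ENSSSCG00000029556 lay at 0 to 0.36 CPM on control diet and 0 to 6.92 CPM on chicory, with 5 of 7 chicory pigs above 1 CPM. In High AS it was above 1 CPM in 1 of 7 chicory pigs and 1 of 10 control pigs. Both were chosen after their values were seen.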
